A study of Mus musculus with 25 samples.

Results

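Trimethylation of lysine 4 of histone H3 (H3K4me3) was mapped in primary myoblasts, and 9206 of the 30763 H3K4me3 peaks lay far from known gene starts and carried no Spin1. They were chosen by 2 values of the peak lists. The centre of the peak was more than 10 kb from the transcription start site (TSS) of every curated RefSeq transcript, and no Spin1 peak overlapped the peak by 1 bp or more. These 9206 regions, called members here, made up 29.9% (95% Wilson interval 29.4 to 30.4%) of all H3K4me3 peaks. They covered 9.22 Mb, 13.6% of the length of all H3K4me3 peaks. Because the absence of Spin1 and the distance chose the members, neither is a finding.

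Primary myoblasts are cultured precursors of muscle fibres. They were taken from limb muscle of mice at an age of 10 days, labelled C57BL/6 (C57BL/6 N in the study's methods). The cells were enriched by preplating and grown to about 70% confluency. Chromatin was precipitated with an antibody against Spin1 or with one against H3K4me3, and each antibody gave 1 library. The title of the second library names H3K4me3, whereas its antibody entry reads anti-H3K4me, and the title was followed here. How many mice gave the cells is not stated in the labels, and neither library has a replicate. No difference below therefore has a replicate check, and intervals cover counting error over regions of 1 library only. The score of a peak is the p-value that the peak caller MACS gave against input chromatin, as −log10 multiplied by 10. It grows with depth and width, accumulates at 3100 and gives no order among peaks at that value. Whether a score above 3100 marks a stronger peak than a score of 3100 was not tested. Members named below for the highest scores therefore need not be the strongest. The number of reads behind the lists is unknown, and Spin1 too weak to be called counts as absent.

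H3K4me3 is a mark of promoters, where it is written by SET1 and MLL methyltransferases, which are drawn to unmethylated CpG-rich DNA by subunits with CXXC domains. Away from annotated genes the mark is found at unannotated promoters, at CpG islands inside or between genes, at genes read by RNA polymerase III and, more weakly, at active enhancers, which mostly carry monomethylated H3K4. Spin1 is a reader protein whose Tudor-like domains bind trimethylated H3K4. In myoblasts, enhancers are bound by MyoD and its relatives, which recognise E-boxes, and by AP-1, TEAD and Runx factors.

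Sequences of 9 regions were chosen after their values were seen, each set to show 1 kind of member. They were read from the RefSeq sequence of GRCm38 (mm10) and are written 5′ to 3′, with positions counted from 1 and the strand in parentheses. The first set holds a tRNA gene under each of 5 members with a score of 3100. Capitals mark the B box, the internal promoter element that polymerase III factor TFIIIC binds, searched as GTTCGANNC on the gene's strand.
tRNA-Ser (n-TSaga7), chr13:23500957-23501038 (-): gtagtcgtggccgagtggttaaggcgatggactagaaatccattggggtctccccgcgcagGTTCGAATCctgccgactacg
tRNA-Lys (n-TKctt12), chr17:23535332-23535404 (-): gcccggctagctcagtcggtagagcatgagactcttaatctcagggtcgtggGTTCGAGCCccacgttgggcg
tRNA-Ala (n-TAagc19), chr13:21259768-21259839 (+): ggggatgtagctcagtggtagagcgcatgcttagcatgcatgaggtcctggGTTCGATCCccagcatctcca
tRNA-Glu (n-TEttc8), chr9:104408667-104408738 (-): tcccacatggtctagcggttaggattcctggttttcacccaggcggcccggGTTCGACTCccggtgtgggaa
tRNA-Thr (n-TTcgt4), chr13:21322813-21322886 (+): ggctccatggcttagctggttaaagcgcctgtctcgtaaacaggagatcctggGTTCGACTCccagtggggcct

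The second set contrasts CpG-rich with CpG-poor sequence below strong members, and capitals mark each CpG. The first stretch, in the coding sequence of Apba1, holds 38 CpG in 200 bp, and the second, in an intron of Dennd2a below the member with the highest score, holds 3.
Apba1, chr19:23893053-23893252 (+): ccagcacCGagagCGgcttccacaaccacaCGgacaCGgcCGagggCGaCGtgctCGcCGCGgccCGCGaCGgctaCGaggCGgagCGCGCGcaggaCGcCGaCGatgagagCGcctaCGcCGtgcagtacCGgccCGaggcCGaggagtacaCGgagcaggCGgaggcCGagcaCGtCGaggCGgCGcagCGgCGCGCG
Dennd2a, chr6:39515487-39515686 (+): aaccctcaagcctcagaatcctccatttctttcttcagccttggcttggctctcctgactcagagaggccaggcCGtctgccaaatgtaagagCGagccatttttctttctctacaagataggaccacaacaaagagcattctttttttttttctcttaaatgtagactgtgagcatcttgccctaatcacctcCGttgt

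The third set shows recognition motifs of muscle transcription factors. Capitals mark CAGCTG, the E-box preferred by MyoD, in an intron of Ppfia4 downstream of Myog, and TGANTCA, the AP-1 site, in an intron of Tnks1bp1.
Ppfia4, chr1:134320709-134321008 (+): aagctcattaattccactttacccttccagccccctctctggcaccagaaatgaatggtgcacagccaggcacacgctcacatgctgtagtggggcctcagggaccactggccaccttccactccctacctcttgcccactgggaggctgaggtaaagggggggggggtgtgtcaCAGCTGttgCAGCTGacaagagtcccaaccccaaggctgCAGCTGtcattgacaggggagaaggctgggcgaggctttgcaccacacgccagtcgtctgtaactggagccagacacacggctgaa
Tnks1bp1, chr2:85060855-85061154 (+): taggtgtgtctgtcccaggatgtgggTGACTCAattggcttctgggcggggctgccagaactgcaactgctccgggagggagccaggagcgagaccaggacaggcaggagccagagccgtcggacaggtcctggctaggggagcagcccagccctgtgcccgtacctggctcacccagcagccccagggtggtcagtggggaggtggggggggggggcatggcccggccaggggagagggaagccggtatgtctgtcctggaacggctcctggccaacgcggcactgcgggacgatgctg

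Most members lay in introns or between genes at places with no annotated start. The distance rule itself favours such places. Of the 2022 H3K4me3 peaks as far from a TSS that carry Spin1 (distal peaks with Spin1), 57.2% were intergenic and 40.2% intronic. Of the 9206 members, 4695 (51.0%) had their centre between curated genes, 4166 (45.3%, 44.2 to 46.3%) in an intron, 213 (2.31%) in coding sequence and 132 (1.43%) in another exon. The median distance to the nearest curated TSS was 36287.5 bp (35250.5 to 37195.5 bp). For 2404 members (26.1%) the TSS was within 20 kb, and for 1548 (16.8%) it was beyond 100 kb. Centres were upstream of the nearest TSS for 3723 members (40.4%). Median width was 875 bp (866 to 885 bp) and median score 167.7 (163.2 to 173.2). Scores under 200 were held by 5085 members (55.2%), whereas 297 (3.23%, 2.88 to 3.61%) reached 3100 or more. Score and width rose together across the 9206 members of this 1 library (Spearman's rho 0.840), and the score had almost no relation with the distance to the TSS (rho -0.014).

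Each member was assigned to the first that held of 8 kinds of site. A tRNA gene within 500 bp was found at 28 members (0.304%, 0.211 to 0.439%). The start of a model RefSeq transcript (XM or XR), which the rule did not use, was within 1 kb of 689 further members (7.48%, 6.96 to 8.04%). A start annotated only by GENCODE M21 was within 1 kb of 575 (6.25%), and a pseudogene was at 561 (6.09%). Another 345 members (3.75%) consisted mostly of sequence with other copies in the genome. The remaining members were intronic in 3410 cases (37.0%), intergenic in 3336 (36.2%) and exonic in 262 (2.85%). Median scores fell from 2174.8 at tRNA genes through 269.4 at model starts, 240.4 at pseudogenes and 214.3 at GENCODE starts to 175.9 at the other intergenic and 133.9 at the other intronic members. Of the 2022 distal peaks with Spin1, 2.32% were at tRNA genes, 14.5% at model starts and 10.8% at GENCODE starts. Pseudogenes took 4.50% of them and multicopy sequence 4.25%. Other introns held 28.4%, other intergenic places 33.3% and other exons 1.93%.

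**Figure D1:**
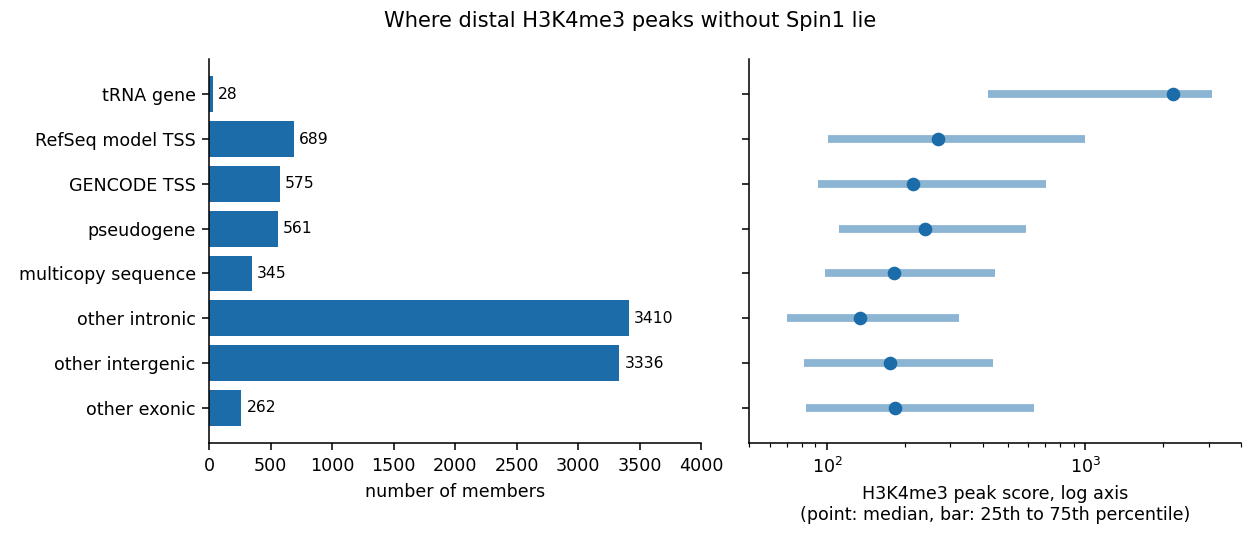
The left panel gives the number of members of each kind of site, and the right panel their H3K4me3 peak score on a log axis, with a point for the median and a bar from the 25th to the 75th percentile. The 28 members at tRNA genes are few but have a median score of 2174.8, whereas the 3410 other intronic members have a median of 133.9.

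The 297 members with a score of at least 3100 were distributed differently over these sites. A model start was the site of 83 (27.9%, 23.2 to 33.3%) and a GENCODE start of 38 (12.8%, 9.47 to 17.1%), and 11 lay at tRNA genes (3.70%, 2.08 to 6.51%). Other introns held 40 of them (13.5%, 10.05 to 17.8%), well below the 37.0% of all members. In all, 132 of the 297 (44.4%) had a model or GENCODE start within 1 kb, against 1766 of the 9206 (19.2%). Their nearest Spin1 peak was at a median gap of 43682 bp, against 34638.5 bp for all members. It was within 10 kb for 39 of them (13.1%), against 17.2% of all members. The rule excludes overlap with Spin1, so these gaps are a description only.

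Members at tRNA genes had the highest median score of the 8 kinds of site. tRNA genes are read by RNA polymerase III from promoter elements inside the gene. The 28 members lay on 8 chromosomes, 16 of them on chromosome 13, where the large histone and tRNA gene cluster is located. Their median score was 2174.8 (701 to 3100), 11 had a score of 3100, and their median width was 1723.5 bp. The lowest scores were 92.8 at a threonine tRNA gene (n-TTagt3) and 143.1 at a serine tRNA gene (n-TStga2), both on chromosome 13. The widest had 5131 bp and spanned 4 tRNA genes next to Btn2a2, on chr13:23497148-23502278. Elsewhere, the member at the glutamate tRNA gene n-TEttc8, on chr9:104407725-104410269, had a score of 3100 with the nearest Spin1 peak 144323 bp away. Of 403 tRNA genes in the annotation, 35 had a member within 500 bp, 94 a distal H3K4me3 peak with Spin1, 160 an H3K4me3 peak closer to a curated TSS and 114 no H3K4me3 peak. The B box spelled out above was found in 26 of the 35 tRNA genes at members (74.3%, 57.9 to 85.8%) and in 250 of all 403 (62.0%, 57.2 to 66.6%). These intervals overlap. Distal peaks with Spin1 at tRNA genes numbered 47, which is 2.32% (1.75 to 3.08%) of that set against 0.304% of the members, and 45 of the 47 had a score of at least 3100.

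Annotated starts outside the curated set accounted for part of the stronger members. Among the members within 1 kb of a GENCODE start, 482 were at protein-coding genes, 168 at lincRNA genes, 70 at antisense genes, 15 at microRNA genes and 15 at snRNA genes. The highest score of all members, 3222.7, was that of a member of 2114 bp in an intron of Dennd2a, a regulator of Rab GTPases, on chr6:39514530-39516643. The start of a model transcript of Dennd2a was 337 bp from its centre, and the nearest curated TSS, of 8030453O22Rik, 11954 bp. A member with a score of 3196.5 on chr17:23537035-23539037 was 636.5 bp from the model gene Gm41543, and 1 with a score of 3183.5 on chr14:19041498-19042993, whose nearest curated gene is Ube2e2, was 30 bp from the start of Gm41099. The member with a score of 3196.0 nearest to Pcdh1, a protocadherin gene, was 124 bp from the start of Gm30188.

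The other 6 of the 10 highest scores, which range from 3138.5 to 3222.7, had no start of either annotation within 1 kb. They lay 19541 bp upstream of Rest, which encodes a repressor of neuronal genes (chr5:77245096-77246809, score 3203.8), 57894.5 bp upstream of Cpm, a membrane carboxypeptidase gene (chr10:117570735-117572475, 3184.5), and 11667.5 bp upstream of the lincRNA gene Gm27162 (chr9:32939866-32941400, 3143.9). Introns of Dlg2, a synaptic scaffold gene (chr7:91261632-91263340, 3139.9), and of App, the amyloid precursor gene (chr16:85133090-85134799, 3138.5), held a member each. The sixth was in coding sequence of Apba1, an adaptor that binds App (chr19:23892600-23893932, 3176.4). Of these 6, all had a CpG-island-like window.

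Pseudogenes and other duplicated sequence made up a further group. A pseudogene start of GENCODE was within 1 kb of 532 members (5.78%, 5.32 to 6.27%), most of them the 491 at processed pseudogenes, which are copies of spliced mRNA. Copies were searched as 32-mers, of which 1 in 16 was looked up in the 21 chromosomes and the mitochondrial genome. At least 50% of the 32-mers had another copy in 286 of the 532 (53.8%, 49.5 to 58.0%) and in 433 of the other 8674 members (4.99%, 4.55 to 5.47%). A CpG-island-like window was present in 77.6% (73.9 to 81.0%) of the 532, against 36.5% (35.5 to 37.5%) of the others, and median scores were 258.7 and 164. In all, 719 members (7.81%, 7.28 to 8.38%) were mostly multicopy, against 9.84% (8.62 to 11.2%) of the distal peaks with Spin1. Repeats marked in the assembly covered at least 50% of 488 members (5.30%, 4.86 to 5.78%). The median marked share of a member was 13.2% (12.9 to 13.5%) of its bases, and 36.4% of the bases of the genome are marked. Other H3K4me3 peaks were alike in this, with medians of 13.9% for distal peaks with Spin1, and of 11.4% without and 14.9% with Spin1 nearer to a TSS. No member held any of the mitochondrial 32-mers looked up (0 of 9206, where 3 counts of the total give an upper limit of 0.0326% and the Wilson interval ends at 0.0417%). The part of reads from other copies in these peaks was not tested.

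The largest accumulation of members was a tandem array on chromosome 6 between Hrh1, a histamine receptor gene, and Atg7, an autophagy gene. It was chosen after its values were seen. Within a stretch of 137.0 kb, 55 H3K4me3 peaks followed each other with a median spacing of 2440.25 bp between centres, and 51 of them were members. Copies of a 32-mer in this stretch were most often 2424 bp apart, and 75.4% of the distances between consecutive copies were within 100 bp of this value. The 51 members had scores from 61.4 to 311.3 with a median of 145.1, widths from 556 to 1012 bp and a GC content from 59.3 to 62.2%. A CpG-island-like window was found in 24 of them and CAGCTG in 49. The 4 peaks with Spin1 had H3K4me3 scores from 83.9 to 142.2, inside the range of the members, and Spin1 scores from 79.9 to 153.0.

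**Figure D2:**
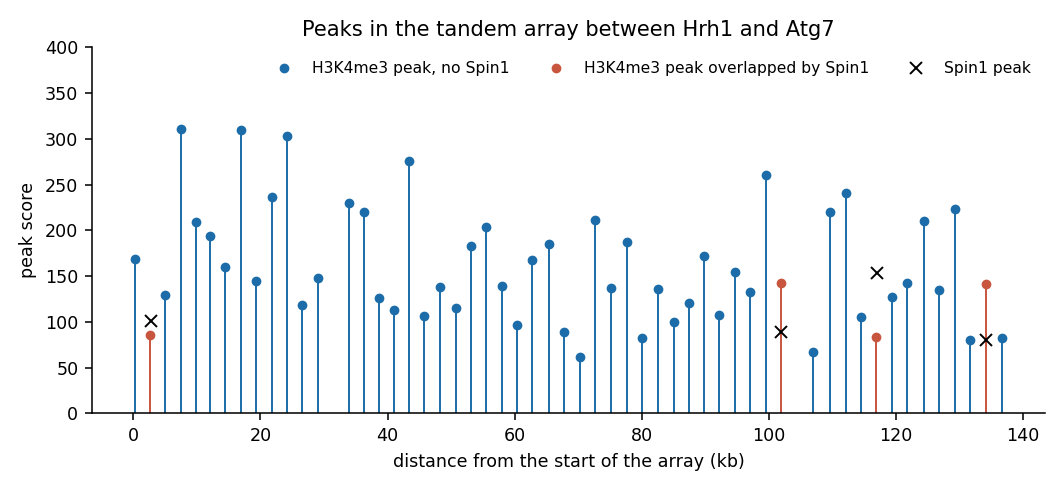
Each point is a peak in the array, by its distance from the start of the array in kb and its score, blue for the 51 members, red for the 4 H3K4me3 peaks that Spin1 overlaps and a cross for the 4 Spin1 peaks. The H3K4me3 peaks repeat at a nearly even spacing, and the peaks with Spin1 are not the highest.

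No other place was as crowded. Of 6268 windows of 100 kb with a member, 4418 held 1, and 98 held 5 or more. The 2 windows over the array had 39 and 11 members. Next came 16 members in the window of Actn4 on chromosome 7, 11 at Map4k4 on chromosome 1 and 10 at Septin11 on chromosome 5, and the median share of multicopy 32-mers was 0 in each of these 3.

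Members with CpG-rich sequence had higher scores, with wide overlap. A CpG-island-like window, here 200 bp with a GC content of at least 50% and an observed/expected CpG ratio of at least 0.6, was present in 3579 members (38.9%, 37.9 to 39.9%). With 500 bp, 55% and 0.65 it was present in 676 (7.34%, 6.83 to 7.89%). Members with the 200 bp window had a median score of 326.9 (308.5 to 349.4) and a median width of 1040 bp (1019 to 1058 bp). Those without it had a median score of 119.1 (115 to 124) and a median width of 786 bp (772 to 798 bp). A wider peak has more room for such a window, and the part of width was not tested. Scores of 3100 or more were reached by 7.38% (6.57 to 8.28%) of the first group and 0.587% (0.418 to 0.822%) of the second. A model or GENCODE start was within 1 kb of 29.7% (28.2 to 31.2%) and 12.5% (11.7 to 13.4%), and 32.3% (30.8 to 33.8%) and 53.5% (52.2 to 54.8%) were intronic. Across members, score and the observed/expected CpG ratio of the peak had a Spearman's rho of 0.276, and 624 members with a window had a score under 100. The median ratio of all members was 0.312, against 0.332 for distal peaks with Spin1 and 0.19 for the genome.

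**Figure D3:**
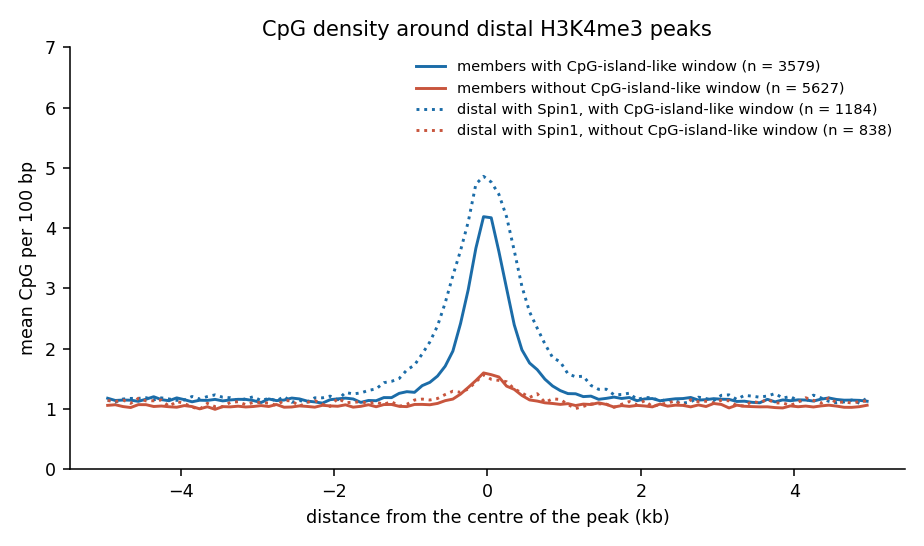
Lines give the mean number of CpG per 100 bp by distance from the centre of the peak in kb, blue for peaks with and red for peaks without a CpG-island-like window, solid for members and dotted for distal peaks with Spin1. Over the central 200 bp the 3579 members with a window average 4.18 CpG per 100 bp and the 1184 peaks with Spin1 4.81, against 1.58 and 1.53 without a window, and the members' peak is the narrower one.

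Among strong members without a CpG-island-like window, which numbered 33 with a score of at least 3100, the 5 named by rule, 4 of them tied at 3100 and taken by width, lay in introns of Dennd2a, of the lncRNA gene Mir99ahg, of Prrc2b, of Tnks1bp1 and of Ncoa3, a nuclear receptor coactivator gene. The Mir99ahg member, on chr16:77417495-77423348, was 5854 bp wide at a GC content of 38.2%, and the model gene 9430053O09Rik started 40 bp from its centre. It was also 1 of the 5 widest members. The others were 9631 bp on chromosome 6 near Rny3, with 98.0% multicopy 32-mers, 6329 bp in Tjap1, 5706 bp in Plekhh2 and 5436 bp in Ebf3, each with a score of 3100.

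Whether a distal peak lacked Spin1 varied with the strength of its H3K4me3. Of all H3K4me3 peaks, 53.5% had no Spin1, with 37.2% for those within 10 kb of a TSS and 82.0% for the 11228 distal ones. Among the distal peaks this share was 94.3% (93.4 to 95%) for scores under 100, 91.9% from 100 to 200, 88.2% to 500, 81.7% to 1000, 72.8% to 2000, 60.1% (55.2 to 64.8%) to 3100 and 27.2% (24.6 to 29.9%) for scores of 3100 or more. By width, it was 94.6% (93.9 to 95.3%) under 750 bp and 12.2% (9.20 to 16.05%) from 3000 bp, where 43 of 352 peaks had no Spin1. The distal peaks with Spin1 had a median score of 1701.7 (1438.8 to 1900.0) and a median width of 1769.5 bp (1706 to 1831 bp). These values describe how the members were chosen, and the part of width in the overlap with Spin1 was not tested.

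At like scores below 3100, peaks without Spin1 held a CpG-island-like window more often than those with Spin1. Over all scores the order was the opposite, with 38.9% in the members and 58.6% (56.4 to 60.7%) in the 2022 distal peaks with Spin1. From 100 to 200, the window was found in 33.3% (31.3 to 35.4%) of the 2020 members and in 17.9% (12.96 to 24.2%) of the 179 peaks with Spin1. From 200 to 500 the shares were 43.7% (41.6 to 45.8%) and 31.1% (25.9 to 36.9%), and from 2000 to 3100 they were 83.0% (77.7 to 87.2%) and 69.9% (62.3 to 76.5%). The intervals were apart in all 6 classes of score below 3100, and at 3100 or more the shares were 88.9% (84.8 to 92.0%) and 90.6% (88.3 to 92.4%). The peaks with Spin1 were as wide or wider in each class but that under 100, where the medians were 602 bp for the members and 599 bp. Without multicopy peaks the class from 100 to 200 gave 31.3% (29.2 to 33.4%) and 16.6% (11.8 to 22.8%), and the intervals stayed apart in all 6 classes. With the stricter CpG criterion the members' share was the higher one in each of the 6, but the intervals overlapped in 5 of them, as in the class from 100 to 200 with 2.77% (2.14 to 3.58%) and 1.12% (0.307 to 3.98%). At sites outside tRNA genes, other starts, pseudogenes and multicopy sequence they overlapped in 4 of the 6.

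When the peaks were divided by width instead, the order turned for wide peaks. Under 750 bp, 96.6% (95.2 to 97.6%) of the distal peaks with a CpG-island-like window and 94.0% (93.1 to 94.9%) of those without it had no Spin1. From 1500 to 2000 bp these shares were 66.9% (63.5 to 70.2%) and 71.5% (67.3 to 75.4%), from 2000 to 3000 bp 36.25% (32.6 to 40.05%) and 50% (43.7 to 56.3%), and from 3000 bp 11.2% (31 of 276) and 15.8% (12 of 76). Of these 3 classes the intervals were apart in that from 2000 to 3000 bp only. Dividing the peaks by score or width was decided after the data were seen.

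**Figure D4:**
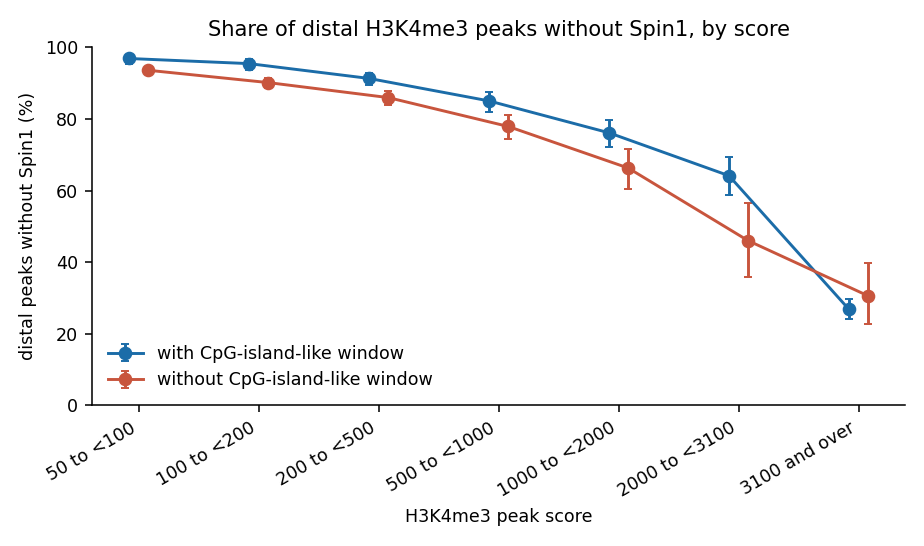
Points give the percentage of distal H3K4me3 peaks without Spin1 by class of H3K4me3 peak score, with 95% Wilson intervals, blue for peaks with and red for peaks without a CpG-island-like window. The share falls from 96.9% and 93.6% under a score of 100 to 26.8% and 30.6% at 3100 or more, and below 3100 the peaks with a window lie above those without.

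The E-box preferred by MyoD was frequent in the members. CAGCTG, a palindrome, was present in the central 500 bp of 3468 members (37.7%, 36.7 to 38.7%), with 1 copy in 2622 of them, 2 in 705 and 3 in 111. Of 5294579 tiles of 500 bp that cover the chromosomes, 16.8% held it, and tiles with the GC content of the members would give 26.2%. The tiles include the repeats of the genome, which are less frequent in members, and the part of repeats was not tested. The same letters in another order, CTGCAG, which is also a palindrome, were found in 32.3% (31.3 to 33.2%) of the members against 26.8% at their GC content. At a GC content from 45 to 50%, CAGCTG was in 36.0% (34.3 to 37.8%) of 2818 members and 24.3% of tiles, and CTGCAG in 28.9% (27.3 to 30.6%) and 23.2%. Among the 407 members from 60 to 65% GC, CTGCAG was in 51.8% (47.0 to 56.7%) and CAGCTG in 49.6% (44.8 to 54.5%), with overlapping intervals. The part of the array on chromosome 6, where 49 of 51 members hold CAGCTG, in this class was not tested. Distal peaks with Spin1 held CAGCTG in 35.4% (33.3 to 37.5%). A match of letters does not show binding, and the general E-box CANNTG was in 92.5% of members and 93.0% of tiles.

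Other motifs were counted on both strands of the same windows. The AP-1 site, searched as TGANTCA with any base at N, was in 1833 members (19.9%, 19.1 to 20.7%) against 12.7% of tiles at their GC content. The TEAD site GGAATG was in 28.4% (27.5 to 29.3%) against 25.9%, and the Runx site TGTGGT in 30.9% (30 to 31.9%) against 31.9%. Distal peaks with Spin1 held the TEAD site in 24.9% (23.1 to 26.9%) and the Runx site in 26.6% (24.7 to 28.5%). Motifs of CpG-rich promoters have more fixed letters and were rarer in members and tiles alike, though each was more frequent in members than in tiles. The tiles were matched for GC content and not for CpG or repeats, and the part of either was not tested. The Ets site CCGGAAG was in 4.26% (3.86 to 4.69%) against 3.55%, the GC box GGGGCGGGG in 4.99% (4.56 to 5.45%) against 2.82%, the CRE TGACGTCA in 0.858% (0.689 to 1.07%) against 0.520%, and the NRF1 site GCGCATGCG in 0.869% (0.699 to 1.08%) against 0.232%. In distal peaks with Spin1 the Ets site was more frequent, at 6.18% (5.21 to 7.32%). There the GC box was in 5.74% (4.81 to 6.84%), the CRE in 0.742% (0.450 to 1.22%) and the NRF1 site in 0.841% (0.526 to 1.34%), with intervals that overlap those of the members. AP-1 sites were in 23.7% (22.6 to 24.8%) of the members without a CpG-island-like window and in 14.0% (12.9 to 15.1%) of those with one.

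**Figure D5:**
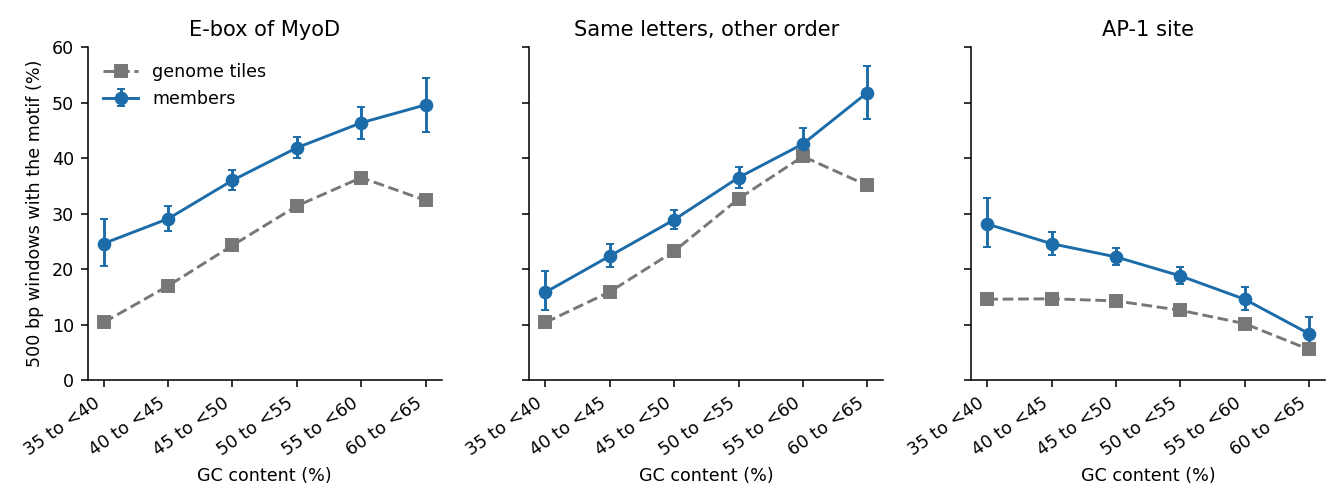
Each panel gives the percentage of 500 bp windows with a motif by GC content, blue circles for the centres of members with 95% Wilson intervals and grey squares for tiles of the genome. The panels show CAGCTG (left), CTGCAG (middle) and TGANTCA (right), and members lie above the tiles in every class of GC shown, with CTGCAG closest at 42.6% and 40.3% between 55 and 60%.

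AP-1 sites were less frequent in members than in distal peaks with Spin1 in all 7 classes of score, with intervals apart in 3. Over all scores the shares, 19.9% and 20.6% (18.9 to 22.4%), were close. Under a score of 100, members had 22.5% (21 to 24.0%) and peaks with Spin1 29.4% (23.4 to 36.3%). From 100 to 200 the shares were 19.4% (17.7 to 21.2%) and 38.5% (31.7 to 45.9%), from 200 to 500 they were 20.2% (18.5 to 22.0%) and 29.3% (24.2 to 34.96%), and from 500 to 1000 they were 19.2% (16.9 to 21.8%) and 28.8% (23.2 to 35.1%). The intervals were apart in the 3 classes from 100 to 1000 and overlapped in the other 4. Without the peaks that have a CpG-island-like window, the class from 100 to 200 gave 22.1% (19.99 to 24.4%) and 40.1% (32.6 to 48.2%), and it was the only one of the 7 with intervals apart. From 200 to 500 the shares were then 24.5% (22.1 to 27.0%) and 29.3% (23.2 to 36.1%), and the order turned from a score of 2000, with 17.5% and 14.9% up to 3100 and 18.2% and 12% above. CAGCTG was in 38.9% (36.8 to 41.0%) and 44.1% (37.1 to 51.5%) of all peaks of the class from 100 to 200, with overlapping intervals.

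Members were spread over many genes. A curated gene was the nearest to at least 1 member for 5545 genes, and 3500 of these had 1. Atg7 with 33 and Hrh1 with 22 owe 29 and 22 of these members to the array. Septin9, a septin gene of the cytoskeleton, was nearest to 14, Map4k4, a kinase gene, to 13, and Nfia, a transcription factor gene, and Pakap to 11 each. Another 8 genes, Actn4, Akap6, Celf4, Ets1, Gse1, A330074K22Rik, Gm14010 and Gm5784, were nearest to 10 each.

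Inside gene bodies, 2510 genes held a member and 14 held at least 10. The most, 16, were in Actn4, which encodes the actin cross-linker alpha-actinin 4 and spans only 69.1 kb. Their scores ran from 50.8 to 640.9 with a median of 124.9, none had a CpG-island-like window, 6 had CAGCTG in their centre, and 1 further distal peak in the gene had Spin1. Akap6, an anchoring protein gene of 451.6 kb, and Septin9, of 162.7 kb, had 13 each. Nfia, of 536.9 kb, had 12 with a median score of 346.4. Pde4d, a cAMP phosphodiesterase gene of 1301.8 kb, had 11 with scores from 71.9 to 3100. Myh9, the gene of a non-muscle myosin, had 10 in 81.6 kb, all with scores from 52.2 to 180.3, and Tcf4, an E protein gene whose product pairs with MyoD, had 10 in 343.5 kb with scores from 199.1 to 2577.5. Septin11 and Tns1 also had 10 each. Map4k4 with 11 members and the lncRNA gene Morrbid with 10 contained no distal peak with Spin1.

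Genes of 4 muscle lists, which were set with earlier results of these data known, were examined for members within 100 kb of a TSS. Of 21000 protein-coding genes, 48.2% (47.5 to 48.8%) had 1 or more. Of 36 myogenic regulators, 29 had (80.6%, 65.0 to 90.2%), of 11 surface and fusion genes 9 (81.8%, 52.3 to 94.9%), of 14 signalling genes 8 (57.1%, 32.6 to 78.6%) and of 20 sarcomere genes 8 (40%, 21.9 to 61.3%). Nfia had 7 members, Lbx1, a regulator of migrating muscle precursors, and the E protein gene Tcf12 had 6 each, and Nfix and Runx1 had 5 each. Id1 and Id3, inhibitors of bHLH factors, and Tead1 had 4 each. None was within 100 kb of Myf5, Myf6, Pax3, Id2, Heyl, Meox2 or Eya1. The sarcomere gene with the most was the troponin gene Tnni1 with 4, and Acta1, Actc1, Ckm, Actn2 and the myosin genes Myh1, Myh2, Myh4 and Myh8 had none.

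The genes of the myogenic regulatory factors, Pax3 and Pax7 had from 0 to 2 members within 100 kb, where the median over all protein-coding genes was 0. Within 100 kb of Myod1, which encodes MyoD, 2 of 8 H3K4me3 peaks were members. One was 74904 bp upstream in an intron of Otog (chr7:46301099-46302040), with a score of 187.7. The other was 24408.5 bp upstream (chr7:46351671-46352459), with a score of 93.5, 1 CAGCTG in its centre and a Spin1 peak at a gap of 187 bp. Near Myog, 1 of 13 H3K4me3 peaks was a member. It was 30855.5 bp downstream in an intron of Ppfia4 (chr1:134320287-134321431), with a score of 176.7, and its central 500 bp held 4 CAGCTG, of which 3 are in the stretch printed above. That number was reached by 28 members and surpassed by 2. Near Pax7, a regulator of muscle stem cells, 2 of 4 H3K4me3 peaks were members, both in its own introns, with scores of 150.2 (chr4:139805144-139805997) and 50.1 (chr4:139770590-139771178) and 1 CAGCTG each.

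Some members coincided with listed enhancers. RefSeq holds 1015 enhancers from experiments, of which 620 are VISTA elements, tested with reporters in mouse embryos. Members overlapped 93 of the 1015, and 90 of these were VISTA entries, while 92 were among the 677 that lie more than 10 kb from a curated TSS (13.6%). Of the members, 100 (1.09%, 0.894 to 1.32%) overlapped such an enhancer, against 52 of the 2022 distal peaks with Spin1 (2.57%, 1.97 to 3.36%). A score of 3100 was seen at 7 of the 10 highest-scoring ones, and 4 of these 7 had a model or GENCODE start within 1 kb. One was 54155 bp upstream of Ptch1, the Hedgehog receptor gene (chr13:63626753-63628476), and 236 bp from the start of the lincRNA gene Gm30709. A member that overlaps a fragment tested as an enhancer of Gfi1 (chr5:107687448-107689042) was 74.5 bp from the start of 5830411K02Rik, and 1 with no such start was 21919.5 bp upstream of the glucose transporter gene Slc2a3 (chr6:122763824-122765504).

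Of the 5 members farthest from a curated TSS, 3 consisted mostly of duplicated sequence. On chromosome Y, a member of 556 bp was 3230515 bp from the TSS of Gm20867, with all of its 32-mers multicopy and a score of 82.5. On chromosome 6, a member 1688555 bp from Gm31747 had a score of 2211.6, lay at the processed pseudogene Gm6210 and had 65.8% multicopy 32-mers. On chromosome 10, 1 that was 1646626 bp from D030045P18Rik had a score of 1443.5 and was 96.4% repeat. The remaining 2, nearest to Cdh9 and Gm31747, had scores of 116.2 and 150 and were 1638657.5 and 1575008 bp away.

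The 3 peaks named on either side of the 10 kb threshold had scores in overlapping ranges, and are too few to compare both sides. The 3 just inside it were 10001.5 bp from Clmp, 10004 bp from Dnah7c and 10004.5 bp from Mir21a, with scores of 134.8, 106.9 and 51.0. The 3 just outside, without Spin1, were 9997 bp from Myo18a, 9994.5 bp from Runx1 and 9989 bp from C030013C21Rik, with scores of 55.35, 56.2 and 135.9.

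The cells were checked against marker genes by an H3K4me3 peak within 1 kb of a curated TSS. All 8 myoblast markers had one, Myod1, Myf5, Pax7 and Des among them, while none of the 4 hepatocyte and none of the 4 T and B cell markers did. The mark was also at all 4 neuronal markers, both smooth muscle markers, 3 of 4 endothelial and 3 of 4 fibroblast markers, 1 of 4 macrophage markers and 1 of 2 adipocyte markers, so H3K4me3 at a promoter did not single out the myoblast list. The part of other cells in the members was not tested.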

How the data were processed

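Of the 25 samples of the series, the peak lists of 2 ChIP-seq libraries were used. Neither the input library nor the 22 samples of RNA-seq entered this work. The authors mapped reads to mm10 with Bowtie2, called peaks with MACS 1.4.2 against the input and kept those at a false discovery rate of up to 1%. The deposited files give start, end and score of each peak, the score being the p-value as −log10 multiplied by 10. No reads or counts were used, so depth is unknown.

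Peaks on the 21 chromosomes were compared with 45756 curated transcripts of 26180 genes (RefSeq annotation release 108.20200622), with 73497 model transcripts and with GENCODE M21. Sequence measures came from GRCm38, soft-masked bases counting as repeats. Motifs were searched in the central 500 bp. The distance to TSSs, Spin1 overlap, CpG windows and motif search were tested on simulated data. Shares have 95% Wilson intervals and medians order-statistic intervals. Analyses ran in Python 3.11.15 with pandas 2.3.3, SciPy 1.17.1, NumPy 2.4.6 and matplotlib 3.10.9.

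No test was run, since each antibody has 1 library. Members, gene lists and alternatives were chosen with earlier results of these data known. Named regions were, by rule, the 10 members with the highest score (ties by falling width), the 5 widest, the 5 farthest from a TSS, 3 on either side of 10 kb, the 5 highest with and without a CpG-island-like window, and those within 100 kb of Myod1, Myf5, Myf6, Myog, Pax3 and Pax7. Named genes were those nearest to the most members and those of the fixed lists with the most members. Genes by members inside, tRNA genes, enhancers, the array, the score classes and the GC classes were added after seeing the data. Alternatives changed the distance, the transcripts, the point of the peak, the Spin1 criterion, the score threshold, and the CpG, repeat and motif criteria. Leaving out multicopy members or the array was added later. 1 gene that the rule named is not reported here.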

Additional observations from a re-analysis of the deposited data

How the results depend on the processing

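No paired analysis was possible because each antibody has a single library. Planned and added alternatives were compared with the interval of each share or median, or with 1.5 times a count. Of 60 planned comparisons 35 stayed within these limits, and of 16 added later 12. Settings with a score threshold also dropped weaker Spin1 peaks, so H3K4me3 peaks that only such Spin1 peaks overlap counted as members there. The upper 50% of each list by score gave 1548 members by this count, 10.1% of the H3K4me3 peaks. Of these, 31.2% were intronic, 83.5% CpG-island-like and 32.8% with CAGCTG, at a median width of 1999.5 bp and a median score of 3100. Among the 9206 members, 235 had scores from 2000 to 3100 and 297 had 3100 or more, so these values largely describe other peaks. With a score of at least 100 in both lists, members were 24.4% of the peaks, 41.9% were intronic, 48.1% CpG-island-like, and the medians were 1082 bp and 304.5. With all RefSeq transcripts, 22.4% of the peaks were members, 37.2% CpG-island-like and 5.95% mostly repeat, at a median width of 864 bp. Distances of 5 kb and 20 kb gave 36.5% and 22.1% of the peaks, with 46.6% and 43.9% intronic. The nearest edge gave 29.4% of the peaks, and counting Spin1 within 1 kb gave 29.2%. The stricter CpG criterion gave 7.34%, 80% masking 2.11% repeat and the central 300 bp 24.7% with CAGCTG. Without multicopy members, 27.6% of the peaks were members, with 47.3% intronic, 36.2% CpG-island-like and 2.27% mostly repeat. Leaving out the array moved none of the 8 values beyond its interval. Weak peaks of either library below the threshold of MACS are not in the lists.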

Other observations

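Members were found on all 21 chromosomes. They were 23.4% (21.7 to 25.1%) of the H3K4me3 peaks on chromosome 11, which is dense in genes, and 36.0% (33.5 to 38.7%) on chromosome 13. Per Mb of chromosome there were 4.64 on chromosome 19 and 1.16 on chromosome X, where 50 of 198 members were mostly multicopy. On chromosome Y, 20 of 30 H3K4me3 peaks were members, all 20 of them mostly multicopy, with a median score of 305.5. Another H3K4me3 peak was within 1 kb of 968 members (10.5%, 9.90 to 11.2%), and a Spin1 peak that did not overlap was within 1 kb of 228 (2.48%, 2.18 to 2.81%).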
